A study of Mus musculus with 56 samples.

Results

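The comparison described here set adrenal glands of male Znrf3 conditional knockout (cKO) mice at 9 weeks against glands of control littermates of the same sex and age. Its members were the 8 libraries that the labels place in those 2 groups, 4 cKO and 4 control, out of 56 samples in the whole series. All were C57BL/6J mice. The cKO animals carried SF1-Cre together with homozygous floxed Znrf3 (Znrf3 Fx/Fx), and the controls are labelled as negative for SF1-Cre. SF1-Cre is active in steroid-producing cells, so the deletion is aimed at the adrenal cortex and not at the medulla, vessels or blood cells. Each library came from 1 mouse, per the series design text, and from whole gland cleaned of fat, so it holds cortex, medulla, capsule, vessels and immune cells together. The other groups compared below are males at 6 and 4 weeks and females at 9 weeks. Each has 4 cKO and 4 control animals of the same genotypes. Females at the other ages of the series, cKO and control, entered only the fit of 48 libraries used for the sex difference. The series asks which mechanisms accompany the change from an enlarged to a shrinking gland.

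The product of Znrf3 sits in the cell membrane, tags the Frizzled receptors for degradation and so dampens Wnt signalling. In the adrenal cortex Wnt signalling is strongest under the capsule, where it maintains progenitors and the aldosterone-producing zona glomerulosa, and loss of Znrf3 in the cortex is known to enlarge the gland first and to be followed by senescence and immune infiltration. Macrophages that take up lipid or dying cells switch on a characteristic set of genes for lipid binding, lysosomes and matrix digestion, which can be read in whole-gland RNA.

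The 8 libraries held 17592813 to 22386499 gene counts each, and mitochondrial genes took 3.83% to 5.84% of counts, with overlapping ranges in the 2 genotypes. Genotype separated the libraries along the first principal component of log2 CPM, which carried 51.0% of the variance, while cKO replicate 1 stood apart from the other cKO libraries on the second (12.7%). Adrenal cortex and medulla markers were abundant in all 8. Of the tissues a dissection could add, kidney Umod was at 0 in every library, and the liver gene Alb reached 60.9 CPM in cKO replicate 3 and 4.02 in cKO replicate 2, against at most 0.621 in the other 6. Alb and Apoa1 were called higher in cKO glands, and without cKO replicate 3 the Alb difference did not pass the test (edgeR adjusted p = 0.454, and 0.366 for Apoa1). Levels below are CPM (counts scaled to a common library size, with TMM factors), listed for replicates 1 to 4 in turn, and p-values are those of edgeR's quasi-likelihood test adjusted by Benjamini-Hochberg over all 17086 genes tested.

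Of these genes, 1779 (10.4%) were higher and 2331 (13.6%) lower in cKO than in control glands at an adjusted p under 0.05, and 497 and 941 of them differed at least 2-fold. The median log2 fold change over all genes tested was -0.01. The levels of the 4 cKO libraries lay wholly above those of the 4 controls for 1637 genes (9.58%) and wholly below for 2069 (12.1%). Genes of the adrenal medulla, Schwann cells, zona glomerulosa and Wnt targets lay on the lower side, and genes of lipid-laden macrophages, complement, secreted inflammatory factors and lysosomes on the higher side. Whole glands were measured, and CPM are shares of the counts of each library. For a lower level, fewer cells of a type, less RNA per cell and more RNA from other cells cannot be told apart anywhere below.

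**Figure D1:**
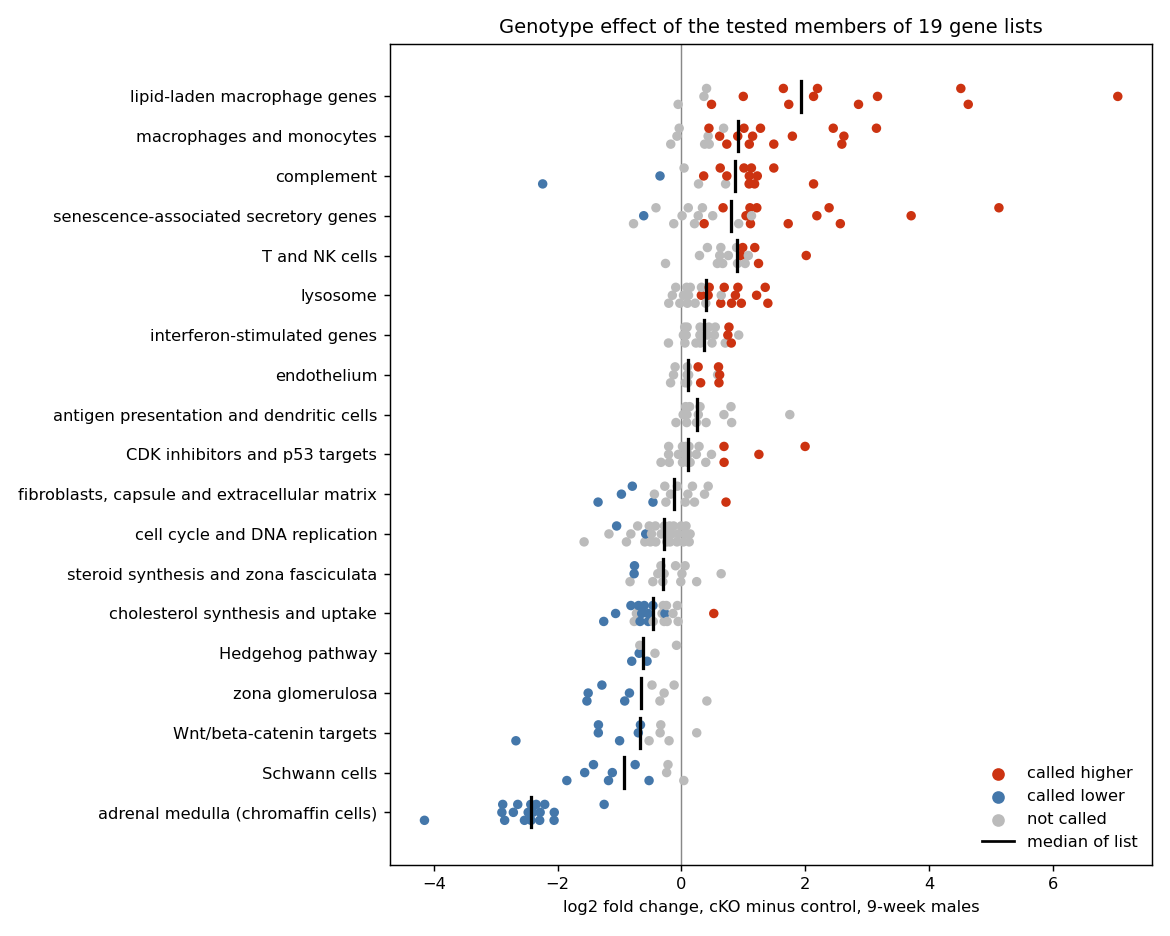
Log2 fold change (cKO minus control, 9-week males) of every tested member of 19 gene lists. Each point is a gene, red where called higher, blue where called lower and grey where not called, and the black bar is the median of the list. All 18 medulla genes lie left of zero, and the lipid-laden macrophage genes reach furthest to the right, with Gpnmb at 7.05.

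Promoters of 6 genes are shown first, because some lysosome and most cholesterol genes, called or not, hold a common short sequence near their starts. They are RefSeq promoters on GRCm38.p6, 300 bases each, written on the strand of the gene from 250 bases before to 50 bases after the annotated start. The motifs searched were the CLEAR core, CCAAT, the sterol regulatory element and those of the factors SF1, TCF/LEF and PU.1. Both strands were searched, and a match is a description of the letters and not of binding. The CLEAR core TCACGTGA, the motif of the lysosomal regulator TFEB, was in 5 of 19 lysosome genes with a promoter (26.3%) against 1.12% of 27025 genes. Among the lysosome genes with a promoter, 10 were called higher at 9 weeks, and 3 of those 10 held the motif: Ctsa and Ctsd, which encode proteases, and Gla, which encodes alpha-galactosidase. The other holders, Mcoln1 (a lysosomal calcium channel) and Atp6v1a (a proton pump subunit), were not called. The motif is in capitals, and Ctsa and Gla carry 2 copies.
Ctsa (chr2:164833523-164833822, plus strand): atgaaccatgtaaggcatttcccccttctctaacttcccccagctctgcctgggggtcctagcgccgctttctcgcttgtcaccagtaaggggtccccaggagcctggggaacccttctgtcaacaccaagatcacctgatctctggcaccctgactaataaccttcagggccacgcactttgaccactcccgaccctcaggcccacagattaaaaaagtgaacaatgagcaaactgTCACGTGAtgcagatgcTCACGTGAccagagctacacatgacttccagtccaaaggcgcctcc
Ctsd (chr7:142387778-142388077, minus strand): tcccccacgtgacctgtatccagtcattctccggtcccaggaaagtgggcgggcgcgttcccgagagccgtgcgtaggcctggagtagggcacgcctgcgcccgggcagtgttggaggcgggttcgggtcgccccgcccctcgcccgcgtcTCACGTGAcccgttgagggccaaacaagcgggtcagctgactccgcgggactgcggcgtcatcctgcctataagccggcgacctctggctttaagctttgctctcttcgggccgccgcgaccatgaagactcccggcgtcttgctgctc
Gla (chrX:134600956-134601255, minus strand): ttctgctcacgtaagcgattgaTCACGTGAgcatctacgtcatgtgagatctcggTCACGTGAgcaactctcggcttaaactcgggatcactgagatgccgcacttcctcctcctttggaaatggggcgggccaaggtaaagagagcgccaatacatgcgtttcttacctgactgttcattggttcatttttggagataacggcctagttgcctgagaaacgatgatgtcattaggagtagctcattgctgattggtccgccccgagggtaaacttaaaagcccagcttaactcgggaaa
Mcoln1 (chr8:3500269-3500568, plus strand): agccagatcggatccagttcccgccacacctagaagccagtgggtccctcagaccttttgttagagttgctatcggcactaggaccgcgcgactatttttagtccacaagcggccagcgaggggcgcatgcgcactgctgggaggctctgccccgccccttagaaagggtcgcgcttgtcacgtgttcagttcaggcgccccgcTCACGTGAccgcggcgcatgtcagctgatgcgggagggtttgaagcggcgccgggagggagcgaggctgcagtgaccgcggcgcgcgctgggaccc

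The box CCAAT, read by the factor NF-Y, was in 14 of 16 cholesterol genes with a promoter (87.5%) against 41.1% of all genes. It was also in 20 of 24 cell cycle genes (83.3%), most of which were not called, so the box is not particular to the cholesterol genes. Among the same 16 cholesterol genes, the sterol regulatory element, the CLEAR core and the TCF/LEF motif were in 0. Their shares of all genes were 0.0999%, 1.12% and 4.29%. Each motif was searched as an exact sequence, so variant forms were not counted. With an exact sequence this rare among all genes, 0 of 16 does not show that the cholesterol genes lack sterol regulatory elements. The SF1 and PU.1 motifs were in 1 each (6.25%), against 1.76% and 3.69% of all genes. Of 8 called cholesterol genes with a promoter, 7 held the CCAAT box, and the other was Acat2, which rose. Dhcr7, Mvk, Hmgcs1, Pmvk, Insig1, Mvd and Soat1 held the box and were not called. Holding the box therefore did not set the called cholesterol genes apart. The promoters of Idi1 and Msmo1, enzymes of the pathway that fell at 9 weeks, are shown with the box in capitals (ATTGG where it lies on the other strand).
Idi1 (chr13:8885356-8885655, plus strand): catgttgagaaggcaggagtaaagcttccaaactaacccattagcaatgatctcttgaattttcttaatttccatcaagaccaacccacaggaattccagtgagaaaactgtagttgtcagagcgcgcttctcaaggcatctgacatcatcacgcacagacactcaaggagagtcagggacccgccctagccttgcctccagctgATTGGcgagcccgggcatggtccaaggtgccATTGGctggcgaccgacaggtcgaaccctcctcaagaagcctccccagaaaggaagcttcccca
Msmo1 (chr8:64733529-64733828, minus strand): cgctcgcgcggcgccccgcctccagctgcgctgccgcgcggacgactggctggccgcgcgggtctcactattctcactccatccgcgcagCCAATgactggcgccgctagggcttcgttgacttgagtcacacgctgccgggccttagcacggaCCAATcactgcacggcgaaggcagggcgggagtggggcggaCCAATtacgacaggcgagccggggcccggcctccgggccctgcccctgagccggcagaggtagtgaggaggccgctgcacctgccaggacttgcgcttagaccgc

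The targeted gene was read first. Znrf3 stood at 38.5, 27.5, 30.7 and 32.4 CPM in the controls and 46.2, 40.8, 52.3 and 46.6 CPM in the cKO glands. All 4 cKO libraries were above all 4 controls, and the fold was 1.44 (log2 0.53 ± 0.13, edgeR adjusted p = 0.00538). The deleted exons are not given in the sources used here, and counts were summed over the whole gene, so this level does not check the deletion. Rnf43, which encodes the related ligase and is itself a Wnt target, was at 16.2, 9.99, 5.77 and 12.04 CPM in controls and 6.06, 4.70, 5.15 and 6.05 CPM in cKO glands. It was 2.00-fold lower (edgeR adjusted p = 0.0123), control replicate 3 lay within the cKO range, and without control replicate 1 the edgeR adjusted p was 0.0660.

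Wnt/beta-catenin targets were lower or not called. Of 11 tested, 6 fell (Lgr5, Apcdd1, Nkd1, Rnf43, Lef1 and Wif1), 0 rose, and the median log2 fold change was -0.66. Lgr5, the R-spondin receptor of progenitor cells, was at 23.9, 47.7, 44.6 and 32.5 CPM in controls and 8.50, 6.67, 4.44 and 3.69 CPM in cKO glands. The 2 groups were far apart, with a 6.39-fold lower level in cKO (log2 -2.67 ± 0.26, edgeR adjusted p = 1.49e-07). Control levels of Lgr5 were highest in replicates 2 and 3, as were those of the medulla genes. The part of medulla RNA in this fall was not tested. Apcdd1, a secreted Wnt inhibitor induced by the pathway, was at 37.8, 35.3, 49.3 and 63.6 CPM against 18.5, 15.8, 22.9 and 16.1 CPM, 2.54-fold lower (log2 -1.34 ± 0.22, edgeR adjusted p = 8.28e-05). Axin2, the most used readout of the pathway, did not follow: it was at 81.3, 79.98, 86.5 and 86.2 CPM in controls and 68.8, 118, 107 and 103 CPM in cKO glands, with cKO replicate 1 lowest of all 8 and the other cKO libraries above every control (log2 0.25 ± 0.16, edgeR adjusted p = 0.292). Lef1, a nuclear partner of beta-catenin, was 1.58-fold lower (edgeR adjusted p = 0.0255), but leaving out cKO replicate 1, cKO replicate 2, control replicate 2 or control replicate 4 gave adjusted p-values of 0.0542, 0.0659, 0.0629 and 0.0961.

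**Figure D2:**
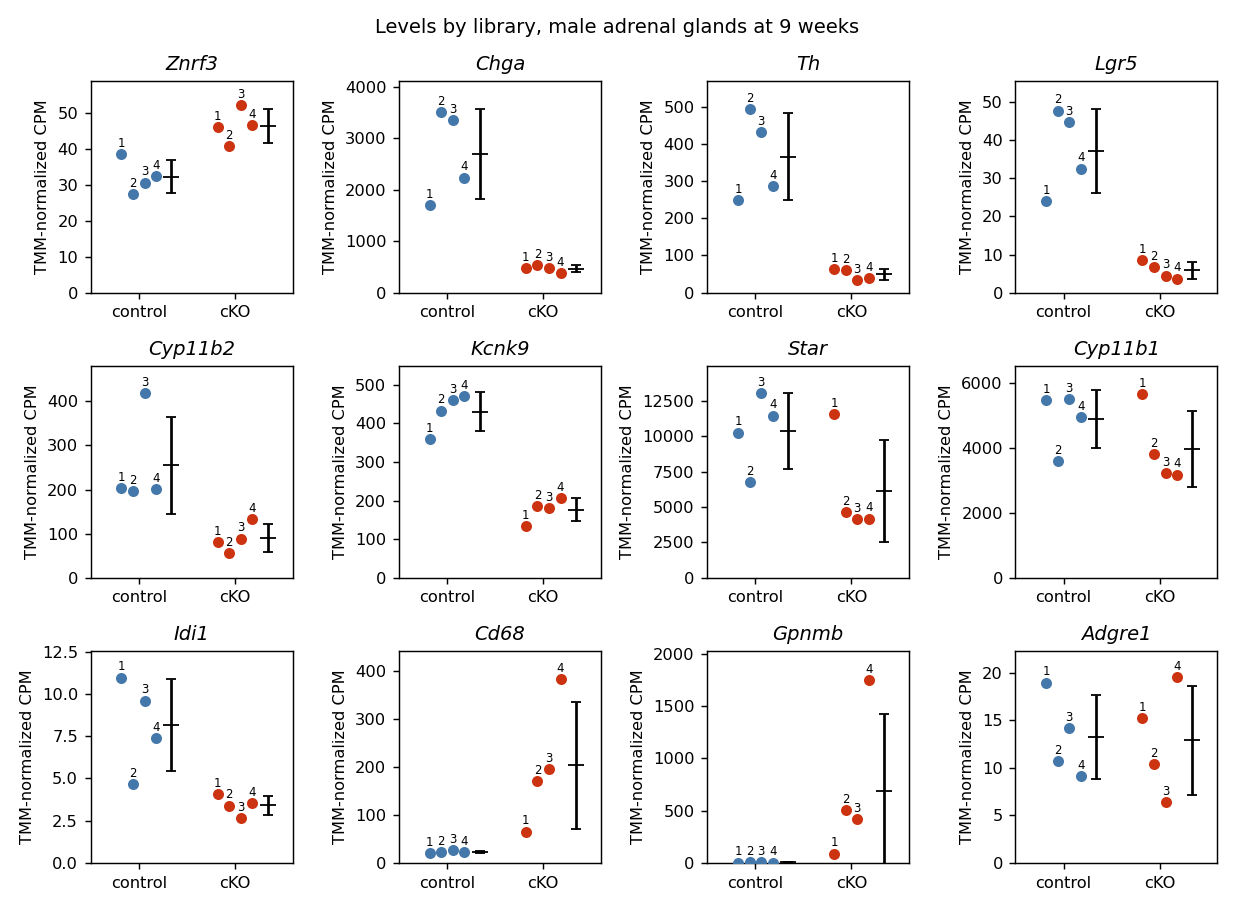
TMM-normalized CPM of 12 genes in the 4 control (blue) and 4 cKO (red) libraries of 9-week males, on linear axes from 0, with replicate numbers. Black marks are the mean ± SD of 4 animals, and the lower bar of Gpnmb is cut at 0. Chga, Th and Lgr5 separate the genotypes downward, Cd68 and Gpnmb upward with cKO replicate 4 highest, and Adgre1 overlaps.

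The zona glomerulosa, the outer zone that makes aldosterone, showed 5 of 10 genes lower and 0 higher, with a median log2 fold change of -0.66. Kcnk9, a potassium channel that sets the resting voltage of these cells, was at 358, 433, 460.2 and 470.1 CPM in controls and 134, 186, 180.5 and 207 CPM in cKO glands (2.44-fold lower, log2 -1.29 ± 0.21, edgeR adjusted p = 9.76e-05). Agtr1b, an angiotensin II receptor, was at 19.2, 23.2, 25.3 and 22.2 CPM against 8.50, 6.11, 10.9 and 5.61 CPM (2.88-fold lower, edgeR adjusted p = 4.51e-05). Neither gene had overlapping groups. Dab2, a zone marker, was 1.79-fold lower, and Vsnl1, a calcium sensor, was also called lower. Cyp11b2, the aldosterone synthase, was at 203, 197, 418 and 201 CPM in controls and 80.96, 55.8, 88.9 and 132 CPM in cKO glands. Every cKO library lay below every control, but control replicate 3 stood well above the other controls. The call (log2 -1.51 ± 0.48, edgeR adjusted p = 0.0245) was lost without that library (0.112), without cKO replicate 2 (0.0787) or without cKO replicate 3 (0.0617). Without cKO replicate 2 or control replicate 3 the count of lower zone genes was 3.

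The capsule and stroma supply signals to this zone. Rspo3, the capsular R-spondin, was at 46.6, 56.2, 58.5 and 57.3 CPM in controls and 14.3, 21.8, 27.2 and 22.7 CPM in cKO glands, 2.54-fold lower (log2 -1.35 ± 0.19, edgeR adjusted p = 1.39e-05). Of 16 fibroblast, capsule and matrix genes, 4 were lower (Rspo3, Postn, Nr2f2 and Lum) and 1 higher. These are 25% and 6.25%, against 13.6% and 10.4% of all genes. The gene that rose was Col5a1, a fibrillar collagen, at 227, 205, 178 and 183 CPM against 281, 337, 320.2 and 368 CPM (1.65-fold, edgeR adjusted p = 7.38e-04). In the Hedgehog pathway, which links zona glomerulosa cells to capsular cells, 3 of 6 genes were lower, Ptch1 and Hhip among them, and 0 were higher. Ptch1, the Hedgehog receptor, fell from 88.7, 62.8, 72.97 and 73.9 CPM to 47.8, 57.1, 45.04 and 52.9 CPM (log2 -0.56 ± 0.15, edgeR adjusted p = 0.00820).

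The zona fasciculata makes corticosterone. Of 14 steroid synthesis genes, 2 were lower (Star and Scarb1; 14.3%, near the 13.6% of all genes) and 0 higher, with 0 to 4 lower when single libraries were left out (0 without cKO replicate 2, 3 or 4 or control replicate 1, 4 without cKO replicate 1), and the median log2 fold change was -0.29. Star, which moves cholesterol into mitochondria, was at 10250.4, 6762, 13066 and 11459 CPM in controls and 11556, 4649.6, 4169 and 4176 CPM in cKO glands. cKO replicate 1 lay within the control range, and the other 3 cKO libraries lay below every control. The difference (log2 -0.76 ± 0.26, edgeR adjusted p = 0.0368) did not pass the test without cKO replicate 2, 3 or 4 or without control replicate 1, 3 or 4, with adjusted p-values from 0.0650 to 0.153. Scarb1, the receptor for cholesterol from lipoproteins, was at 3457, 2431, 2410.0 and 2403 CPM against 2426, 1323, 1142 and 1411 CPM (log2 -0.76 ± 0.25, edgeR adjusted p = 0.0292), and its call was lost without cKO replicate 2, 3 or 4 or control replicate 1, at 0.0818 to 0.125. The enzymes Cyp11b1 (log2 -0.30 ± 0.22, edgeR adjusted p = 0.339) and Cyp21a1 (log2 -0.46 ± 0.18, edgeR adjusted p = 0.0601) did not pass. Nr5a1, which encodes SF1 itself, was at 407, 349, 515 and 601 CPM in controls and 914, 645, 726 and 636 CPM in cKO glands, with all 4 cKO libraries above the controls and an edgeR adjusted p of 0.100. Akr1c18, a marker of the juvenile X-zone, was at 0 in every control and at most 0.0509 CPM in cKO glands.

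Cholesterol synthesis and uptake feeds steroid production. Of 23 genes tested, 11 were lower and 1, Acat2, higher, with a median log2 fold change of -0.46. The Acat2 call (edgeR adjusted p = 0.0233) was lost without cKO replicate 2 or 4 or control replicate 3 or 4, at 0.0570 to 0.0750. Sqle, which makes squalene epoxide, was at 31.9, 22.2, 27.7 and 19.7 CPM in controls and 12.9, 13.6, 9.88 and 12.1 CPM in cKO glands (2.09-fold lower, log2 -1.06 ± 0.24, edgeR adjusted p = 0.00265). Idi1, the isomerase whose promoter is shown above, was at 10.97, 4.69, 9.61 and 7.38 CPM against 4.07, 3.39, 2.67 and 3.52 CPM (2.39-fold lower, edgeR adjusted p = 0.00319). Both genes had groups that did not overlap. Lss, Msmo1, Cyp51, Nsdhl, Hsd17b7, Sc5d and Fdps, later or earlier steps of the same pathway, and Stard4, which moves cholesterol within the cell, were also called lower. The folds of the 11 genes ran from 1.20 to 2.39. The count of lower genes was 3 without cKO replicate 3 or without control replicate 3, 6 without control replicate 1 and 7 without cKO replicate 2. Lss was at 0.0503 without cKO replicate 3, and Msmo1 at 0.0597 without control replicate 3 (edgeR adjusted p).

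The adrenal medulla holds the chromaffin cells, which make adrenaline and are not steroid-producing cells. All 18 genes tested were lower, with a median log2 fold change of -2.43, and in all 18 the 2 groups did not overlap. Chga, a granule protein, was at 1702, 3512, 3357 and 2237 CPM in controls and 472, 532, 482 and 377 CPM in cKO glands (5.80-fold lower, log2 -2.54 ± 0.23, edgeR adjusted p = 8.60e-08). Th, the first enzyme of catecholamine synthesis, was at 248, 495, 433 and 287 CPM against 63.4, 61.3, 34.3 and 38.9 CPM (7.40-fold lower, edgeR adjusted p = 1.77e-05). Pnmt, which turns noradrenaline into adrenaline, had the largest fall of the genes named by size, from 51.6, 214, 136 and 68.7 CPM to 8.60, 9.33, 3.67 and 4.90 CPM (17.8-fold lower, log2 -4.15 ± 0.61, edgeR adjusted p = 2.79e-05). Control replicates 2 and 3 were above control replicates 1 and 4 in these 3 genes. The summed level of the 18 genes ran from 6079 to 10944 CPM in controls and from 1094 to 1763 CPM in cKO glands. The enzyme Ddc, the transporter Slc18a1 and the granule protein Scg2 were 5.41-fold, 5.09-fold and 7.47-fold lower.

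Among the other large falls, Spock1, a matrix proteoglycan, was at 13.5, 23.8, 24.2 and 15.1 CPM in controls and 2.34, 1.98, 1.15 and 1.32 CPM in cKO glands (11.3-fold lower, log2 -3.50 ± 0.28, edgeR adjusted p = 3.05e-08). Kcnip1, a subunit of voltage-gated potassium channels, fell 16.7-fold and Vgf, a granule peptide precursor, 13.8-fold. The remaining genes among the 12 largest falls were Ddx25, Kndc1, Lhfpl3, Diras2, AW551984, Pcp4, Efcab1 and Slc6a4, the serotonin transporter. Schwann cells, the glia of the nerve supply, showed 7 of 10 genes lower and 0 higher (median log2 fold change -0.93). S100b, a glial calcium-binding protein, was at 1.89, 3.20, 2.20 and 1.45 CPM against 0.305, 0.735, 0.811 and 0.550 CPM (3.61-fold lower, edgeR adjusted p = 4.38e-04). Without cKO replicate 1, control replicate 2 or control replicate 4 the count of lower Schwann genes was 4.

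Macrophage genes moved the other way. Of 21 macrophage and monocyte genes, 14 were higher and 0 lower, against 10.4% of all genes called higher, and the median log2 fold change was 0.91. Cd68, a lysosomal glycoprotein of phagocytes, was at 20.9, 22.4, 26.5 and 21.97 CPM in controls and 65.3, 171, 196 and 384 CPM in cKO glands (8.89-fold, log2 3.15 ± 0.40, edgeR adjusted p = 5.18e-06). Ctss, a cathepsin of antigen-presenting cells, was at 115, 95.2, 73.3 and 77.4 CPM against 185, 483, 425 and 1083 CPM (6.03-fold, edgeR adjusted p = 8.36e-05). Lyz2, the macrophage lysozyme, rose 6.17-fold, from 144, 109, 111 and 101 CPM to 244, 647, 392 and 1583 CPM (log2 2.63 ± 0.45), and by 1.90 on the log2 scale without cKO replicate 4. In each of these genes cKO replicate 1 was lowest and cKO replicate 4 highest of the cKO glands, with no overlap with controls.

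Not all macrophage genes took part. Adgre1, which encodes the surface marker F4/80, was at 18.97, 10.7, 14.2 and 9.10 CPM in controls and 15.3, 10.4, 6.39 and 19.6 CPM in cKO glands, fully overlapping (log2 -0.04 ± 0.33, edgeR adjusted p = 0.953). Csf1r, the receptor for the macrophage growth factor, was at 69.8, 55.4, 52.2 and 52.6 CPM against 76.6, 67.7, 65.5 and 104 CPM (edgeR adjusted p = 0.122). Cx3cr1, a chemokine receptor of resident cells, was at 44.8, 34.99, 33.2 and 31.7 CPM against 40.2, 35.1, 24.5 and 28.4 CPM (log2 -0.17 ± 0.23, edgeR adjusted p = 0.631). Fcgr1, Ly6c2, Ccr2 and Cd163 were the other genes of the list not called. The levels of Adgre1, Csf1r and Cx3cr1 are given as defining or contrasting markers and were chosen with their values known.

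Genes of lipid-laden macrophages included 3 of the 12 largest rises (Gpnmb, Lgals3 and Fabp5). Of 14 tested, 11 were higher and 0 lower, with a median log2 fold change of 1.94. Gpnmb, a membrane glycoprotein of lysosome-rich macrophages, was at 3.51, 5.78, 9.29 and 2.24 CPM in controls and 89.5, 505, 422 and 1752 CPM in cKO glands (133-fold, log2 7.05 ± 0.87, edgeR adjusted p = 3.17e-06). Lgals3, a galectin, was at 16.3, 27.2, 32.97 and 26.01 CPM against 147, 519, 707 and 1178 CPM (24.8-fold, edgeR adjusted p = 1.49e-06). Fabp5, a fatty acid carrier, was at 11.5, 11.7, 10.6 and 8.66 CPM against 40.6, 196, 241 and 493 CPM (22.9-fold, edgeR adjusted p = 1.14e-06). All 3 separated the groups, cKO replicate 1 being the nearest to the controls. Trem2, the lipid-sensing receptor, was at 3.78, 6.98, 13.6 and 7.69 CPM in controls and 20.2, 68.6, 69.4 and 132 CPM in cKO glands (8.99-fold, log2 3.17 ± 0.49, edgeR adjusted p = 5.40e-05). Itgax, an integrin, and Lpl, lipoprotein lipase, rose 4.39-fold and 4.59-fold, though both genes lay within the control range in cKO replicate 1 (18.3 and 44.7 CPM). The cholesterol exporter Abca1, Soat1 and Cd9 were not called. Without cKO replicate 4 the log2 fold changes of Gpnmb and Fabp5 were 6.04 and 3.92.

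Genes of macrophage fusion and osteoclasts gave 2 rises among 7. Atp6v0d2, a proton pump subunit of multinucleated cells, had the largest fold of the genes named by size, from 0.324, 0.430, 1.36 and 0.264 CPM to 16.7, 87.1, 101 and 221 CPM (176-fold, log2 7.46 ± 0.83, edgeR adjusted p = 8.49e-07). Control replicate 3 was the highest control, and the log2 fold change was 8.30 without it and 6.83 without cKO replicate 4. Acp5, the tartrate-resistant acid phosphatase, was at 17.6, 16.7, 16.2 and 14.9 CPM against 34.7, 86.7, 119 and 173 CPM (6.33-fold, edgeR adjusted p = 1.77e-05). Dcstamp, Ocstamp, Ctsk, Itgb3 and Nfatc1 were tested and not called. Further genes of myeloid cells among the 12 largest rises were the lectin receptor Clec4d (40.5-fold), the scavenger protein Cd5l (30.95-fold) and the receptor Cd300lb (21.7-fold). Slc7a11, the cystine transporter, and Stra6l, a retinol transporter, rose 25.9-fold and 31.6-fold, and without cKO replicate 4 Clec4d and Slc7a11 were at log2 4.48 and 3.75.

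**Figure D3:**
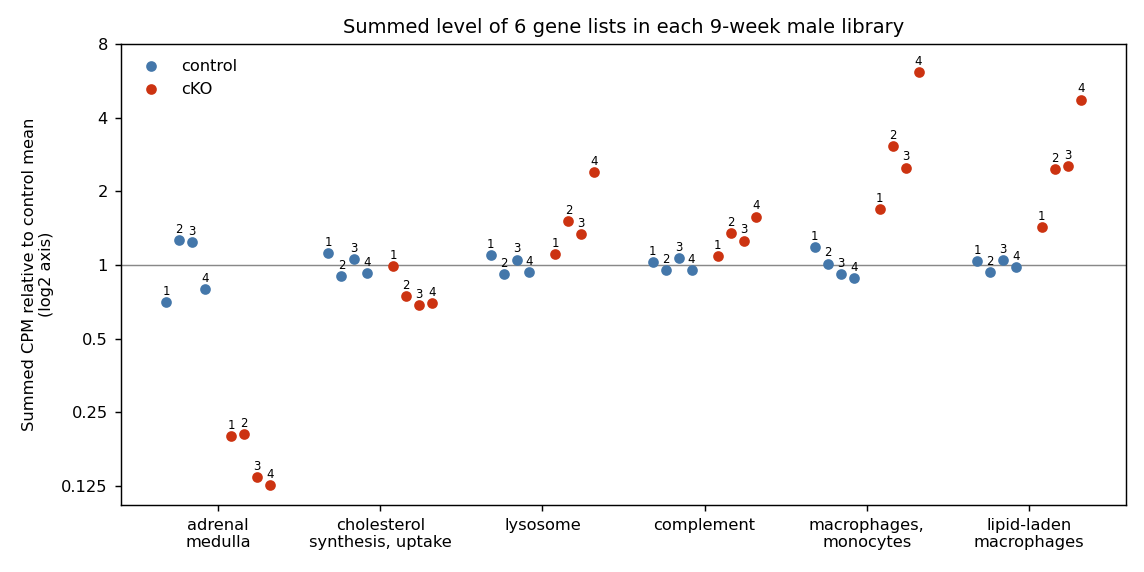
Summed TMM-normalized CPM of the tested members of 6 gene lists in each 9-week male library, divided by the mean of the 4 controls, on a log2 axis, with replicate numbers. Controls (blue) lie near 1. In macrophage lists cKO replicate 1 is lowest (1.69 and 1.43 times the control mean) and cKO replicate 4 highest (6.13 and 4.74 times), while the medulla sums of the cKO glands lie between 0.126 and 0.204 times.

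The cKO glands differed among themselves, and their order depended on the gene list. The summed macrophage genes were 1.69 times the control mean in cKO replicate 1, 3.05 in cKO replicate 2, 2.50 in cKO replicate 3 and 6.13 in cKO replicate 4. Of the 14 macrophage genes called higher, cKO replicate 4 was the highest cKO library in 13 and cKO replicate 1 the lowest in 11. For the 11 lipid-laden macrophage genes these counts were 10 and 10, and for the 12 lysosome genes 12 and 10. Summed zona glomerulosa genes were 0.560, 0.677, 0.739 and 0.770 times the control mean in cKO replicates 1 to 4. In that list cKO replicate 1 lay furthest from the controls. Star in cKO replicate 1 lay within the control range, whereas its medulla genes, at 0.200 times the control mean, were near those of cKO replicate 2 (0.204) and above those of cKO replicates 3 and 4 (0.136 and 0.126). It was the highest cKO library in 9 of the 18 medulla genes. Library numbers in the labels split both genotypes into replicates 1 and 2 (up to 24) and replicates 3 and 4 (above 24). In the first pair of replicates the median log2 fold change was 0.66 for macrophage, 1.39 for lipid-laden, 0.22 for lysosome and -2.16 for medulla genes, and in the second 1.27, 2.41, 0.60 and -2.75. With 2 animals a group, 2 macrophage genes were called in the first pair and 12 in the second.

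Lysosome genes rose with the macrophage genes. Of 25 tested, 12 were higher and 0 lower, with a median log2 fold change of 0.39. Ctsa was at 207, 209, 218 and 221 CPM in controls and 280.5, 381, 428 and 521 CPM in cKO glands (1.88-fold, log2 0.91 ± 0.13, edgeR adjusted p = 1.71e-05), with no overlap. Ctsd was at 583, 409, 514 and 412 CPM against 564, 1191, 982 and 2167 CPM (2.56-fold, edgeR adjusted p = 8.36e-04), and cKO replicate 1 lay within the control range. Gla was at 15.2, 15.3, 15.2 and 16.5 CPM against 17.8, 25.3, 24.8 and 46.04 CPM (1.83-fold, edgeR adjusted p = 0.00228). The other 2 genes with the CLEAR core did not move with them, since Mcoln1 had a log2 fold change of 0.11 ± 0.10 and Atp6v1a of -0.09 ± 0.15. Part of this list is also expressed in the cortex, and how much of the rise came from macrophages was not tested.

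Complement, the plasma cascade that tags cells for uptake, showed 11 of 16 genes higher and 2 lower (median log2 fold change 0.87). C1qc, a chain of the C1q complex made by macrophages, was at 73.5, 69.99, 65.8 and 61.7 CPM in controls and 120.1, 152, 121 and 187 CPM in cKO glands (2.14-fold, edgeR adjusted p = 0.00191). Cfp, which stabilises the alternative pathway convertase, was at 14.2, 19.5, 15.1 and 19.3 CPM against 22.6, 33.1, 45.3 and 53.6 CPM (2.27-fold, edgeR adjusted p = 2.13e-04). The receptor C5ar1 was at 4.05, 4.02, 3.66 and 3.87 CPM against 8.50, 9.79, 9.26 and 8.97 CPM (2.34-fold). Cd55, a membrane regulator that limits the cascade and was among the genes that fell, went from 10.6, 26.4, 19.9 and 14.2 CPM to 3.31, 3.85, 4.72 and 3.14 CPM (4.73-fold lower, log2 -2.24 ± 0.26, edgeR adjusted p = 1.84e-06). Its control levels were highest in replicates 2 and 3, as were those of the medulla genes, and the part of medulla RNA in this fall was not tested.

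Senescence-associated secretory genes, which encode cytokines, proteases and growth factors, were higher in 12 of 24 and lower in 1 (Igfbp6), with a median log2 fold change of 0.80. Mmp12, the macrophage elastase, was at 13.6, 11.6, 24.2 and 17.4 CPM in controls and 149, 465, 674 and 1056 CPM in cKO glands (35.04-fold, log2 5.13 ± 0.52, edgeR adjusted p = 2.78e-07). Il1a, an interleukin released by stressed cells, was at 0.162, 0.239, 0.328 and 0.439 CPM against 0.662, 3.62, 3.96 and 7.65 CPM (13.1-fold, edgeR adjusted p = 1.57e-04). Both separated the groups. Il1rn, which encodes the natural blocker of the interleukin-1 receptor and is not in that list, rose from 0.108, 0.143, 0.610 and 0.0439 CPM to 1.63, 8.71, 16.2 and 27.01 CPM (57.2-fold, edgeR adjusted p = 2.27e-05), and by 7.04 on the log2 scale without control replicate 3, the highest control. Ccl2, a monocyte attractant, rose 5.23-fold, and Spp1, osteopontin, 5.93-fold with log2 1.75 without cKO replicate 4. Several of these genes, Mmp12 and Spp1 among them, are also made by macrophages.

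Most cell cycle arrest genes were not called. Of 21 CDK inhibitors and p53 targets, 4 were higher (Bax, Gdf15, Plk2 and Pmaip1), a larger share than the 10.4% of all genes. In the same list 0 were lower, against 13.6% of all genes, and the median log2 fold change was 0.11. Bax, which triggers apoptosis at mitochondria, was at 63.1, 74.6, 62.6 and 71.9 CPM in controls and 90.8, 108, 121 and 119 CPM in cKO glands (1.61-fold, log2 0.69 ± 0.10, edgeR adjusted p = 2.18e-05). Gdf15, a stress hormone, was at 5.03, 5.59, 2.49 and 4.97 CPM against 6.31, 18.2, 24.9 and 22.8 CPM (4.00-fold, edgeR adjusted p = 7.81e-04), and its cKO replicate 1 lay near the controls. Cdkn1a, which encodes p21, was at 16.97, 24.9, 14.6 and 17.5 CPM in controls and 18.98, 17.5, 18.99 and 34.7 CPM in cKO glands, overlapping apart from cKO replicate 4 (edgeR adjusted p = 0.415). Cdkn2a, which encodes p16 and p19, was at 2.22, 1.96, 1.92 and 3.95 CPM against 2.19, 4.98, 4.06 and 2.92 CPM (edgeR adjusted p = 0.283). The proliferation marker Mki67 was at 13.1, 6.88, 19.2 and 14.2 CPM against 10.6, 11.3, 13.98 and 11.1 CPM (log2 -0.18 ± 0.41, edgeR adjusted p = 0.786). Of 29 cell cycle genes 2 were lower (Bub1b and E2f1), 0 were higher and the median log2 fold change was -0.28. The lower genes were 6.90% of the list, below the 13.6% of all genes. Bub1b, a mitotic checkpoint kinase, was at 11.1, 9.04, 12.9 and 12.4 CPM against 4.58, 4.02, 7.35 and 6.00 CPM, and its call (edgeR adjusted p = 0.0307) was lost without cKO replicate 1, 2 or 4 or control replicate 3 or 4, at 0.0515 to 0.0895.

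Lymphocyte genes rose in smaller number. Of 17 T and NK cell genes, 5 were higher (29.4%) and 0 lower (median log2 fold change 0.89). Of 10 B and plasma cell genes, 3 were higher (30%; Jchain, Igkc and Ighm) and 0 lower (median 0.57). Over all genes 10.4% were called higher. The B cell marker Cd79a and the T cell marker Cd3e were not called. The 2 genotypes did not overlap in 2 of the 5 T and NK cell genes and in 1 of the 3 B and plasma cell genes called higher. Lck, a T cell kinase, was at 3.19, 3.92, 2.81 and 3.60 CPM in controls and 6.26, 5.43, 7.59 and 7.10 CPM in cKO glands (1.95-fold, edgeR adjusted p = 0.00142). Cd4 was at 1.73, 2.87, 2.39 and 1.41 CPM against 2.60, 3.73, 8.06 and 19.7 CPM, with cKO replicate 4 far above the rest, and without that library the edgeR adjusted p was 0.0583. Igkc, the kappa light chain, was at 16.3, 32.3, 22.8 and 27.7 CPM against 19.03, 60.9, 112 and 98.6 CPM (2.93-fold, edgeR adjusted p = 0.00443). Its cKO replicate 1 lay within the control range. The count of higher T and NK cell genes was 1 without cKO replicate 4 and 3 without cKO replicate 3 or control replicate 1 or 4. Of 14 genes for antigen presentation and dendritic cells none was called by edgeR, and 3 were called higher when cKO replicate 1 was left out.

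Vessel, interferon and fat genes are given by count. Of 14 endothelial genes, 5 were higher (Esam, Egfl7, Robo4, Plvap and Cldn5; 35.7% against 10.4% of all genes) and 0 lower, with a median log2 fold change of 0.11. The count was 2 without cKO replicate 2 or control replicate 3 or 4, 3 without cKO replicate 3, and 4 without any other single library. Robo4, a guidance receptor of vessels, was at 71.8, 69.1, 66.9 and 69.9 CPM in controls and 124, 93.9, 102 and 103 CPM in cKO glands (1.52-fold, edgeR adjusted p = 0.00161). Of 20 interferon-stimulated genes, 3 were higher (15.0%, against 10.4% of all genes), with 1 without control replicate 1 and 5 without cKO replicate 1. Irf7, the main amplifier of the response, was at 42.5, 50.5, 46.1 and 63.6 CPM against 79.3, 83.5, 85.8 and 92.5 CPM (edgeR adjusted p = 0.0334). The groups of Irf7 did not overlap, but leaving out cKO replicate 2, 3 or 4 or control replicate 1 or 3 gave adjusted p-values from 0.0587 to 0.102. Fabp4, a fatty acid carrier of fat, vessels and macrophages, was at 82.98, 72.9, 95.2 and 79.05 CPM against 177, 179.8, 207 and 206 CPM (2.33-fold, log2 1.22 ± 0.13, edgeR adjusted p = 6.19e-07), while 5 other fat genes tested were not called.

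The same contrast in females at 9 weeks called 14.3% of 19727 genes higher and 16.2% lower. The difference of the effect between the sexes was tested as an interaction over the 48 libraries of both age series, where sex and the table of counts cannot be told apart, and it called 894 genes (4.53%) with a higher and 1696 (8.60%) with a lower effect in males. Which direction held more genes depended on the setting: the counts were 1005 and 1072 with relative log expression factors, 780 and 522 with no filter on low counts, 1278 and 702 with the stricter filter and 960 and 587 with only the 16 libraries at 9 weeks. They were 942 and 744 without cKO replicate 2, 732 and 456 without cKO replicate 3, and 1048 and 707 without control replicate 4. Mgat4c, a glycosyltransferase gene, fell in males from 4.70, 7.03, 10.1 and 6.42 CPM to 1.27, 1.19, 1.43 and 0.660 CPM (log2 -2.62 ± 0.43) and rose in females (3.88 ± 0.39), a difference in the joint fit of -6.55 ± 0.65 (SE; edgeR adjusted p = 1.24e-08). Cdh13, a cadherin, did likewise (log2 -1.15 ± 0.25 in males, 3.00 ± 0.26 in females, difference -4.21 ± 0.37). Fam155a and Fmo1 had the next most negative differences, -3.52 ± 0.43 and -3.16 ± 0.46. Among genes with a more positive effect in males, Spp1 differed by 3.61 ± 0.80 (edgeR adjusted p = 0.00248), Stra6l by 3.57 ± 0.77 and Slc7a11 by 3.38 ± 0.89. The Spp1 difference exceeded its male effect (log2 2.57), so the female estimate was negative. Without cKO replicate 4 the Slc7a11 difference did not pass (edgeR adjusted p = 0.0509).

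By list, the sexes differed at 9 weeks in 10 of 23 cholesterol genes, all lower in the male effect, in 8 of 24 secretory genes, all higher, and in 6 of 14 lipid-laden macrophage genes higher and 1 lower. The median effect on cholesterol genes was 0.16 in females and -0.46 in males. Idi1 differed by -1.72 ± 0.43 (edgeR adjusted p = 0.00694). Fabp5 differed by 2.88 ± 0.69 (edgeR adjusted p = 0.00511) and Mmp12 by 2.84 ± 0.78 (edgeR adjusted p = 0.0127). For Cd68 the difference was 1.88 ± 0.55 (edgeR adjusted p = 0.0191) and did not pass without cKO replicate 4 (0.0827). Endothelial genes differed in 9 of 14, all with a higher effect in males than in females, and Robo4 by 0.81 ± 0.17 (edgeR adjusted p = 0.00171). The median effect on endothelial genes was -0.41 in females and 0.11 in males. In females 10 of the 14 were called lower and 0 higher, against 16.2% and 14.3% of all genes. None of the 18 medulla genes differed between the sexes by this test, and 18 of 18 were lower in each.

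**Figure D4:**
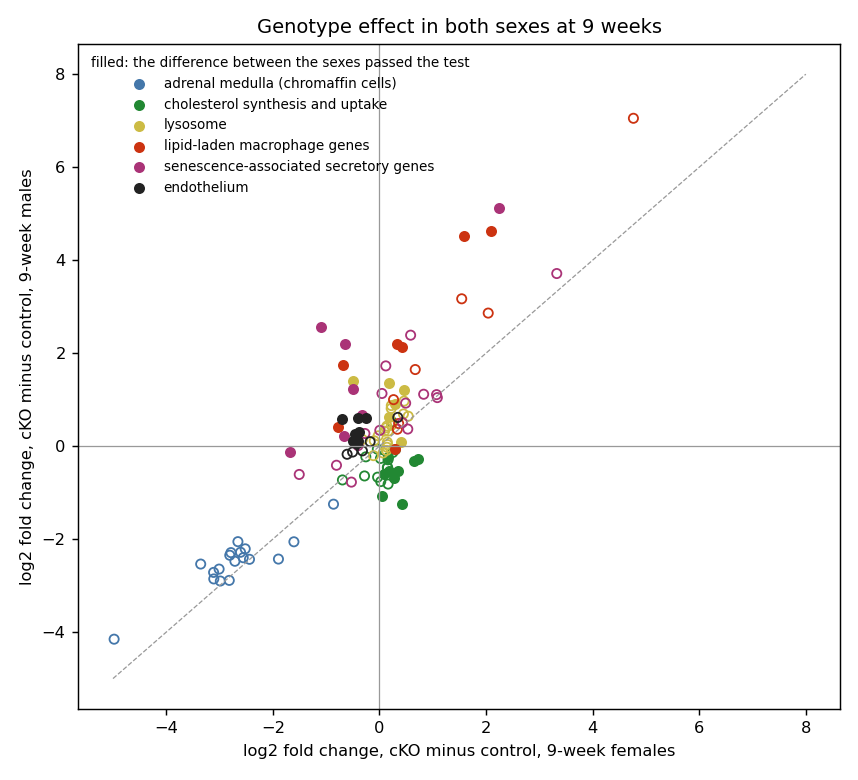
Log2 fold change of the cKO against control glands at 9 weeks in females (x axis) and males (y axis) for members of 6 gene lists. Filled points passed the test of the difference between the sexes and open points did not, and the dashed line marks equal effects. Medulla genes lie along the line with open points, the filled cholesterol genes lie below it, and the filled lipid-laden and secretory genes lie above it apart from 1 lipid-laden gene.

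Against 6 weeks, no gene's effect changed at 9 weeks by edgeR's test (0 of 17086, 0%, with 2510 at an unadjusted p under 0.05), while DESeq2 called 37 higher and 91 lower, and edgeR called 6 and 15 when cKO replicate 1 was left out. All 4 cKO libraries at 6 weeks had numbers up to 24 and all 4 controls numbers above 24, so at 6 weeks genotype and library number range cannot be told apart. At 6 weeks 8.19% of all genes were called higher and 11.9% lower, and at 4 weeks 6.29% and 12.9%. Lipid-laden macrophage genes were called higher in 1 of 14 at 4 weeks, 10 of 14 at 6 weeks and 11 of 14 at 9 weeks, and medulla genes lower in 18 of 18 at each age. Against 4 weeks, edgeR called 503 genes (2.94%) with a higher and 337 (1.97%) with a lower effect at 9 weeks. With the range of library numbers as a covariate these counts were 10 and 3, and the cause of this drop was not tested. All 4 cKO libraries at 4 weeks had numbers up to 24 and 3 of their 4 controls had numbers above it. Genotype and library number can therefore hardly be told apart at 4 weeks. Mmp12 changed by 4.72 ± 0.72 (edgeR adjusted p = 0.00311) and also with that covariate (4.17, edgeR adjusted p = 0.0220). Fabp5 (4.23 ± 0.69) and Il7r (4.71 ± 0.90) passed without the covariate (edgeR adjusted p = 0.00498 and 0.00827) and not with it (0.0556 and 0.0671).

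**Figure D5:**
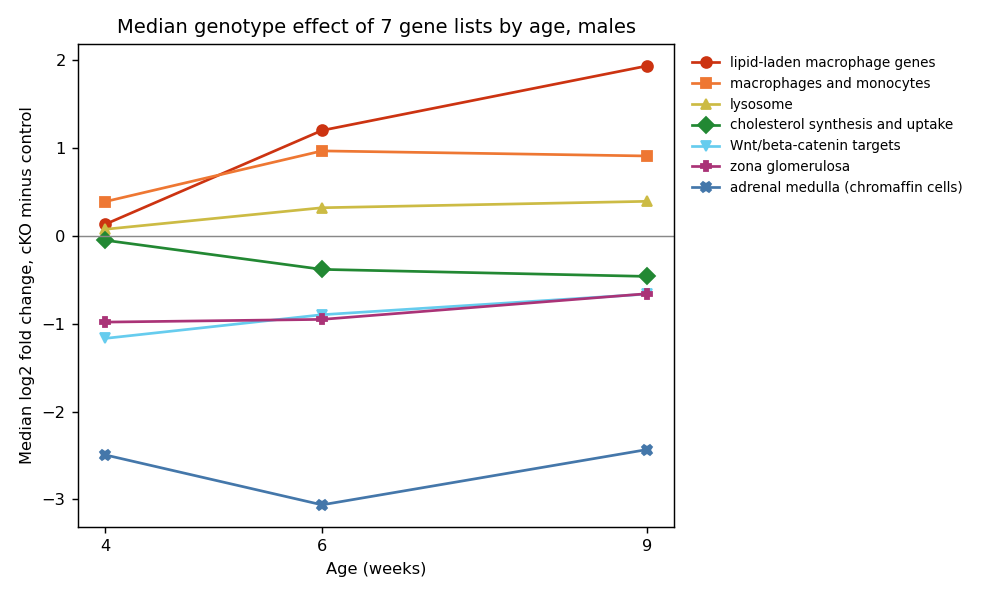
Median log2 fold change of cKO against control glands for 7 gene lists in males at 4, 6 and 9 weeks (x axis, age in weeks). The lipid-laden macrophage median is 0.13, 1.20 and 1.94, the medulla median -2.49, -3.06 and -2.43, and the lines join medians and carry no test.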

How the data were processed

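RNA was sequenced from poly(A)-selected, strand-specific libraries of 8 whole adrenal glands, with males at 4 and 6 weeks and females at 6, 9 and 12 weeks (48 libraries in all) in the fits for age and sex. The values are raw counts of reads per gene as deposited by the authors (55487 genes), and per the submitters' processing notes the tools were STAR 2.7.6a, cutadapt 1.16, RSEM 1.6.3, featureCounts and DESeq2 1.30.1, with the build GRCm38. Of the gene identifiers, 99.4% were matched to a symbol.

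The counts were fitted with edgeR 4.0.16 (R 4.3.3): filterByExpr with a minimum count of 10, TMM normalization, a quasi-likelihood model of the 24 male libraries in 6 groups, and Benjamini-Hochberg adjustment at 0.05. All groups entered the fit to share one estimate of spread. Changes with age were contrasts in that fit, and the sex difference a contrast in a fit of 48 libraries. DESeq2 1.42.0, other normalization and filters, the replicate number as a block, library number and the omission of each library were alternatives. Replicates are separate mice per the series design text. Errors after ± are standard errors of log2 fold changes (n = 4 per group). The script was tested on simulated data. Totals of 17592813 to 22386499 counts per library set the precision of low genes.

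Members and gene lists were chosen with earlier results of these data known. Named genes were a fixed set, the 12 largest rises and 12 largest falls whose groups did not overlap and whose mean log2 CPM reached 1, list members (per-library values for up to 6 per list with the smallest p), and the 4 largest differences each way. Ctsd and Gla, holders of a motif, and Csf1r, Adgre1, Cx3cr1, Lpl and Itgax were added after their values were seen. Some list members are counted but not reported by name here.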

Additional observations from a re-analysis of the deposited data

Results flagged for a closer look

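In 11 of 194 groups of 4 libraries tested, 1 library stood apart from the other 3 by Dixon's test, and chance flags about 1 group in 20. For Cyp11b2, control replicate 3 was at 418 CPM and the other controls at 197 to 203. For Star, cKO replicate 1 was at 11600 CPM (others 4170 to 4650), and for Scarb1, control replicate 1 at 3460 CPM (others 2400 to 2430). For Atp6v0d2, control replicate 3 was at 1.36 CPM. For Cdkn1a, cKO replicate 4 was at 34.7 CPM, and for Cdkn2a, control replicate 4 at 3.95 CPM. For Gla, control replicate 4 was at 16.5 CPM against 15.2 to 15.3. In cKO replicate 3 the liver gene Alb stood at 60.9 CPM, and in control replicate 2 at 0.621 CPM, while Apoa1 stood at 16.1 CPM in cKO replicate 3. The pseudogene Rps2-ps10 was at 106 CPM in cKO replicate 1 against 0.811 to 1.19 CPM in the other cKO glands.

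The genotype effect differed between males and females at 9 weeks by the interaction test for these genes, as male minus female log2 effect: Mgat4c -6.55, Cdh13 -4.21, Fam155a -3.52, Fmo1 -3.16, Idi1 -1.72, Robo4 0.81, Cd68 1.88, Mmp12 2.84, Fabp5 2.88, Slc7a11 3.38, Stra6l 3.57, Spp1 3.61 and Rps2-ps10 8.44. The Rps2-ps10 value rests on cKO replicate 1. The effect differed between 9 and 4 weeks for Fabp5 (4.23), Il7r (4.71) and Mmp12 (4.72), where genotype and library number overlap at 4 weeks.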

How the results depend on the processing

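At 9 weeks, replicates 1 and 2 alone (library numbers up to 24) gave 234 higher and 848 lower genes, and replicates 3 and 4 alone gave 1356 and 1412. In the first pair the counts were 3 lower zona glomerulosa, 1 cholesterol, 2 Wnt and 1 Schwann genes, and 4 secretory, 2 macrophage, 6 lipid-laden, 1 lysosome and 1 complement genes higher. In the second pair they were 2 zona glomerulosa, 4 cholesterol, 2 Wnt and 1 Schwann genes lower. The stricter filter and the 8 libraries alone each gave 4 Schwann genes. Without 1 library, lower genes ran from 1536 to 2343, and among lists from 3 to 5 for zona glomerulosa, 3 to 12 for cholesterol and 4 to 6 for Schwann genes.

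Between 9 and 6 weeks DESeq2 called 37 higher and 91 lower, and single omissions 0 to 6 and 0 to 15. Between 9 and 4 weeks DESeq2 called 814 and 836, the replicate block 179 and 75, the library number covariate 10 and 3, the stricter filter 573 lower, and single omissions 203 to 821 and 87 to 1360. For the sex difference, higher and lower calls were 1005 and 1072 with relative log expression factors, and more were higher than lower with no filter (780 and 522), the stricter filter (1278 and 702) and 16 libraries (960 and 587), and single omissions gave 594 to 1107 higher and 456 to 2221 lower.

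The sign turned for Cyp11b1 (0.059) and Cdkn1a (-0.20) in the first pair, for Mki67 there (0.14) and for Adgre1 in the second pair (0.15). With single libraries left out, the log2 fold change of Mki67 ran from -0.37 to 0.077, of Adgre1 from -0.28 to 0.22, of Rps2-ps10 from -0.092 to 5.07 and of Atp6v1a from -0.22 to 0.030. The cause was not tested. With the replicate block 1392 genes were higher and 1949 lower at 9 weeks. Same-numbered libraries deviated with correlations of -0.0045, 0.093, 0.051 and -0.18, so the numbers were not taken as pairs. Of 97 named genes, the normalization left all 97 on the same side of the threshold.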

Other observations

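Of 10 genes for uptake of apoptotic cells, 3 were higher (Mertk, Mfge8 and Stab1; 30.0% against 10.4% of all genes) and 1 lower (Tyro3). The summed level of 5 neutrophil genes was 1.158, 1.87, 2.26 and 3.06 times the control mean in the cKO glands, with 1 gene (Csf3r) called higher. Of 10 immediate early genes, 1 was higher (10% against 10.4% of all genes). This was Atf3, a stress-induced transcription factor, at 2.27, 3.44, 4.78 and 3.65 CPM in controls and 10.4, 32.1, 46.8 and 89.1 CPM in cKO glands (12.5-fold, edgeR adjusted p = 8.35e-06), with cKO replicate 1 lowest of the cKO glands. Of 12 basement membrane genes 2 were higher (16.7% against 10.4% of all genes) and 2 lower (16.7% against 13.6%). Col4a6, a collagen IV chain, was at 2.76, 1.67, 3.80 and 4.75 CPM against 9.26, 12.9, 5.92 and 6.22 CPM (2.62-fold, edgeR adjusted p = 0.00865). Of 9 genes shared with gonadal steroid-producing cells, Inhbb and Insl3 were higher (22.2% against 10.4% of all genes) and Inhba lower (11.1% against 13.6%). The count of higher genes was 0 without cKO replicate 2 or control replicate 1, and 1 without control replicate 2, 3 or 4. Inhba, an activin subunit, was at 2.38, 4.30, 5.35 and 3.73 CPM against 0.916, 1.36, 1.96 and 1.155 CPM (edgeR adjusted p = 0.00185).

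Some pseudogenes varied between single glands. Tma7-ps was at 0.305, 17.5, 11.8 and 0.550 CPM in the cKO glands and at most 0.541 CPM in controls, and Gm8210 at 0.102, 10.7, 7.44 and 0.165 CPM, so that among the 9-week males both were high in cKO replicates 2 and 3. Uneven levels were also seen in younger controls: Gm8210 was at 4.54 ± 5.25 CPM (SD, n = 4) in 6-week and 2.50 ± 4.82 CPM in 4-week male controls, and Tma7-ps at 5.04 ± 5.44 and 4.58 ± 4.86 CPM.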
